A study of Ovis aries with 6 samples.

Results

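The contractile and muscle cytoskeleton genes were examined in sheep ovary by RNA-seq, with 3 libraries of the Hu breed and 3 of the Mongolian breed, all from ewes in estrus. Hu sheep are a prolific Chinese breed and Mongolian sheep mostly bear single lambs. Each sample is labelled as polyadenylated RNA of ovary, but the series title speaks of exosomes, and the labels describe no vesicle isolation. Whether the values are of tissue or of vesicle RNA is therefore not settled by the labels, and the libraries are called ovary here after the sample labels. The labels name no treatment, age or ovarian region and do not say whether each library is a separate animal, so p-values measure only the spread between these libraries, which may be technical. The genes were chosen by symbol: myosin heavy and light chains, myosin light chain kinase, actins, alpha-actinins, tropomyosins, troponins, calponins, transgelins, filamins, desmin, caldesmon, leiomodin and synaptopodin 2. The rule found 30 of the 14480 genes in the table, 13 of smooth muscle, 12 of the nonmuscle cytoskeleton and 5 of striated muscle. LMOD1, FLNC, MYL6, MYL12A and MYL12B were not analysed here, nor were 22 of the 27 striated muscle symbols, among them skeletal actin ACTA1 and the heavy chains MYH1 to MYH4, MYH6 and MYH7.

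Contraction rests on myosin filaments that pull on actin filaments. In smooth muscle, a calcium signal switches on myosin light chain kinase, which phosphorylates the regulatory light chain, while caldesmon, calponin and tropomyosin lie along the thin filament. In the ovary, smooth muscle cells surround blood vessels and form part of the outer theca, and contractile cells of the follicle wall are known to take part in ovulation.

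Levels are the authors' deposited FPKM, which divide fragments by the length of the transcript and by the library total, so genes can be compared per length. Each run of 3 values follows replicates 1, 2 and 3, and a mean is followed by its SD over 3 libraries. Read depth behind each value is unknown, and a value of 0 is described as listed at 0. The number of genes above 0 ranged from 6500 to 13342 over the Hu libraries and from 10547 to 11463 over the Mongolian libraries, with Hu 1 lowest and Hu 3 highest. The 2 most abundant assembled rows held between 53.3% and 76.5% of the FPKM total in the Hu libraries and between 74.2% and 79.7% in Mongolian, with Hu 3 lowest. Of the 30 genes, 23 were above 0 in all 6 libraries. These bulk values cannot tell fewer cells of a type from less RNA per cell.

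Several genes of the smooth muscle group were among the most abundant named transcripts of these ovaries, though these values do not show which cells express them. TPM1 ranked 33rd, TPM2 35th, ACTA2 36th, CALD1 40th, TAGLN 56th and MYH11 66th by mean FPKM over 6 libraries among the 10189 rows with a symbol. Others of the group ranked lower, down to DES at 449th and SYNPO2 at 595th. ACTG1, the cytoplasmic gamma actin of all cells, ranked 21st, and TPM4, a tropomyosin of nonmuscle and smooth muscle cells, ranked 64th. Together the 30 genes summed to 2.43%, 2.15% and 2.08% of the library total in the Hu libraries, against 2.27%, 1.85% and 2.66% in the Mongolian libraries, after the 2 most abundant assembled rows were left out of the total. The breeds overlapped in that share.

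**Figure D1:**
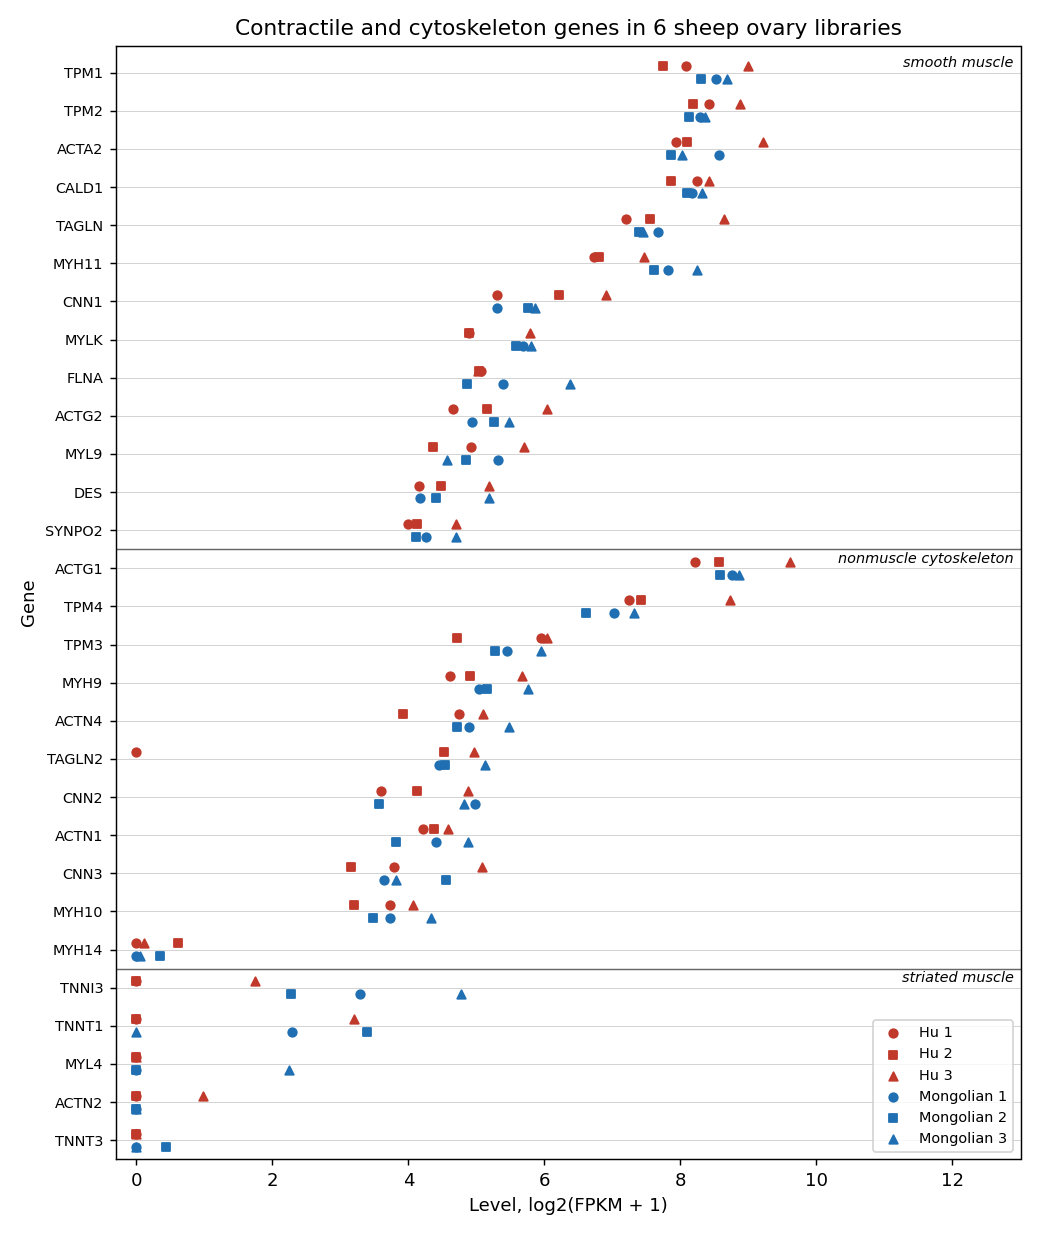
Level of 29 of the 30 genes in each library, on a log2(FPKM + 1) axis, with the Hu libraries (red) drawn above the Mongolian libraries (blue) in each row and a marker shape for each replicate. All 13 smooth muscle genes lay above 0 in every library, whereas the 5 striated muscle genes were listed at 0 in at least 2 libraries each.

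Markers of striated muscle outside the 30 genes were near 0, whereas stroma markers were abundant. Of 12 such markers 7 were listed, among them CKM, the muscle creatine kinase, and NEB, nebulin, and the highest single value was 0.922 FPKM. Their summed level ranged from 0.449 to 2.32 FPKM in Hu and from 0.0911 to 1.43 FPKM in Mongolian. Stroma markers summed to between 946 and 1138 FPKM in Hu and between 876 and 978 FPKM in Mongolian. Of 7 stroma markers 6 were listed, each above 0 in every library.

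The smooth muscle myosin heavy chain was lower in Hu in every library. MYH11 (ENSOARG00000008975), the heavy chain that defines differentiated smooth muscle, had 105, 110.2 and 176 FPKM in the Hu libraries and 224, 195 and 303 FPKM in the Mongolian libraries. The highest Hu library lay below the lowest Mongolian library. The means were 130.4 ± 39.7 FPKM in Hu and 241 ± 55.8 FPKM in Mongolian. On the log2(FPKM + 1) scale, used for all log2 differences here, the difference was -0.90 (SE 0.45), which did not pass the test over all genes (limma unadjusted p = 0.0627, adjusted p = 0.998).

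MYLK, the kinase that activates this myosin, had 28.7, 28.6 and 54.5 FPKM in the Hu libraries and 50.6, 47.1 and 55.1 FPKM in the Mongolian libraries. Hu 1 and Hu 2 lay below all Mongolian libraries and Hu 3 lay among them (log2 difference -0.50, SE 0.48, limma adjusted p = 0.998). MYL9, the regulatory light chain that the kinase phosphorylates, had 29.3, 19.6 and 51.0 FPKM in the Hu libraries and 38.8, 27.9 and 22.7 FPKM in the Mongolian libraries. The breeds overlapped widely, and the log2 difference was 0.08 (95% confidence interval -1.02 to 1.19).

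The actin and thin filament genes of smooth muscle did not share the order of MYH11. ACTA2, smooth muscle alpha actin, had 244, 272 and 594 FPKM in the Hu libraries and 379, 231 and 258 FPKM in the Mongolian libraries, a log2 difference of 0.27 (SE 0.48). TAGLN, the actin-binding protein transgelin, had 146, 187 and 399 FPKM in the Hu libraries and 202, 167 and 174 FPKM in the Mongolian libraries, a log2 difference of 0.30 (SE 0.48). In both genes Hu 3 was the highest library. Hu 1 and Hu 2 lay inside the Mongolian range for ACTA2, whereas for TAGLN Hu 1 lay below it and Hu 2 inside it. CNN1, calponin, which restrains the myosin motor, had 38.5, 73.4 and 119 FPKM in the Hu libraries and 38.4, 53.1 and 57.5 FPKM in the Mongolian libraries, a log2 difference of 0.50 (SE 0.51). None of these differences passed the test (limma adjusted p = 0.998 for ACTA2, TAGLN and CNN1), and those of ACTA2 and TAGLN turned to -0.13 without Hu 3.

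Desmin, caldesmon and synaptopodin 2 were close between breeds in mean FPKM. DES, the intermediate filament protein of muscle, had 16.9, 21.4 and 35.4 FPKM in the Hu libraries, against 17.0, 20.3 and 35.2 FPKM in Mongolian. It averaged 24.6 ± 9.65 FPKM in Hu and 24.2 ± 9.72 FPKM in Mongolian, and the log2 difference was 0.03 (95% confidence interval -1.10 to 1.15). CALD1, caldesmon, had 303, 231 and 342 FPKM in the Hu libraries and 287, 272 and 319 FPKM in the Mongolian libraries. Its SD of log2(FPKM + 1) over 6 libraries was 0.196, the smallest of the 23 genes above 0 everywhere. That SD is of the deposited FPKM, with no further scaling between libraries. SYNPO2, which binds actin and alpha-actinin, averaged 18.8 ± 5.37 FPKM in Hu and 19.8 ± 4.52 FPKM in Mongolian. ACTG2, the gamma actin of visceral smooth muscle, averaged 41.2 ± 20.9 FPKM in Hu and 36.9 ± 7.03 FPKM in Mongolian. The interval of DES spans more than a 2-fold change in either direction, so closeness of its means does not show equal levels.

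The muscle tropomyosins, which lie along actin, were close to ACTA2 in level. TPM1 had 271, 214 and 510.2 FPKM in the Hu libraries and 369, 315 and 409 FPKM in the Mongolian libraries, and TPM2 had 340.0, 291 and 468 FPKM in the Hu libraries and 311, 277 and 326 FPKM in the Mongolian libraries. Hu 3 was the highest library in both; Hu 1 and Hu 2 lay below all Mongolian libraries for TPM1, whereas for TPM2 Hu 1 lay above them and Hu 2 among them. The log2 difference of TPM2 was 0.24 (SE 0.44).

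FLNA, a filamin that cross-links actin filaments, was highest in Mongolian 3. It had 32.6, 32.01 and 31.5 FPKM in the Hu libraries and 40.8, 28.2 and 81.9 FPKM in the Mongolian libraries. The Hu values were nearly equal in FPKM and lay inside the Mongolian range (log2 difference -0.50, SE 0.51, limma adjusted p = 0.998). Without Mongolian 3 that difference was -0.08. Relative to ACTA2 the Hu libraries were not equal. The ratio of FLNA to ACTA2 was 0.134, 0.118 and 0.0530 in Hu and 0.108, 0.122 and 0.317 in Mongolian.

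Among the nonmuscle genes, TPM4 (ENSOARG00000000875) had the largest positive log2 difference. It had 151, 171 and 424 FPKM in the Hu libraries and 129, 96.7 and 159 FPKM in the Mongolian libraries. Hu 2 and Hu 3 lay above all Mongolian libraries, and Hu 1 lay between Mongolian 1 and Mongolian 3. The means were 249 ± 152 FPKM in Hu and 128 ± 31.1 FPKM in Mongolian. The log2 difference of 0.82 (SE 0.49) did not pass the test (limma unadjusted p = 0.119, adjusted p = 0.998). Without Hu 3 it was 0.35.

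TPM3, a tropomyosin of slow muscle and nonmuscle cells, had 60.8, 25.3 and 64.8 FPKM in the Hu libraries, against 42.7, 37.5 and 61.0 FPKM in Mongolian. Hu 2 was the lowest library and Hu 1 lay inside the Mongolian range.

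The nonmuscle myosins MYH9 and MYH10, motors of cell cortex and cell division, overlapped between breeds. MYH9 averaged 34.1 ± 14.1 FPKM in Hu and 39.9 ± 11.6 FPKM in Mongolian, and MYH10 averaged 12.1 ± 3.75 FPKM in Hu and 13.9 ± 4.75 FPKM in Mongolian. MYH14 reached 0.531 FPKM at most in Hu and 0.267 FPKM at most in Mongolian. TAGLN2, the transgelin of nonmuscle cells, was listed at 0 in Hu 1, at 22.1 and 30.1 FPKM in Hu 2 and Hu 3, and at 20.8, 22.1 and 33.9 FPKM in Mongolian. Its log2 difference of -1.54 (SE 0.97) rested on the value of 0 in Hu 1 and was 0.04 without that library.

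The cytoplasmic actin ACTG1 had 297, 379 and 780.3 FPKM in the Hu libraries and 433, 381 and 462 FPKM in the Mongolian libraries. Alpha-actinins ACTN1 and ACTN4, which tie actin filaments to adhesions, averaged 20.1 ± 2.70 and 24.4 ± 9.63 FPKM in Hu and 20.6 ± 7.70 and 32.6 ± 9.91 FPKM in Mongolian. The calponins CNN2 and CNN3 averaged 18.6 ± 8.85 and 17.9 ± 13.3 FPKM in Hu and 22.9 ± 10.6 and 15.7 ± 5.87 FPKM in Mongolian. The breeds overlapped in each of these genes. Coding sequences of the actins are nearly identical, and how fragments shared by ACTA2, ACTG1, ACTG2 and ACTB were assigned is not given in the sources used here, so their separate levels are uncertain.

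Troponins belong to the thin filament of striated muscle, and few of them were listed. TNNI3 (ENSOARG00000001811), the inhibitory troponin subunit of heart muscle, was listed at 0 in Hu 1 and Hu 2 and at 2.36 FPKM in Hu 3, against 8.81, 3.82 and 26.3 FPKM in Mongolian. All 3 Mongolian libraries lay above all 3 Hu libraries, and Mongolian 3 stood far above the other Mongolian libraries. It reached the filter level of 0.5 FPKM in all 3 Mongolian libraries and in 1 Hu library. The log2 difference was -2.86, with limma unadjusted p = 0.00355 and adjusted p = 0.998 (SE 0.83).

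TNNT1, the troponin T of slow skeletal muscle, is the next protein-coding gene to TNNI3 in the RefSeq annotation of the sheep assembly ARS-UI_Ramb_v3.0, yet it did not follow the levels of TNNI3. It was listed with 0, 0 and 8.19 FPKM in the Hu libraries and 3.89, 9.48 and 0 FPKM in Mongolian, so the library with the highest TNNI3 listed no TNNT1. MYL4, an atrial light chain, was above 0 in Mongolian 3 alone, at 3.72 FPKM. ACTN2, the alpha-actinin of the sarcomere, was above 0 in Hu 3 alone, at 0.969 FPKM, and TNNT3, the troponin T of fast skeletal muscle, in Mongolian 2 alone, at 0.350 FPKM. These 3 genes and MYH14 reached 0.5 FPKM in fewer than 3 libraries and were not tested.

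**Figure D2:**
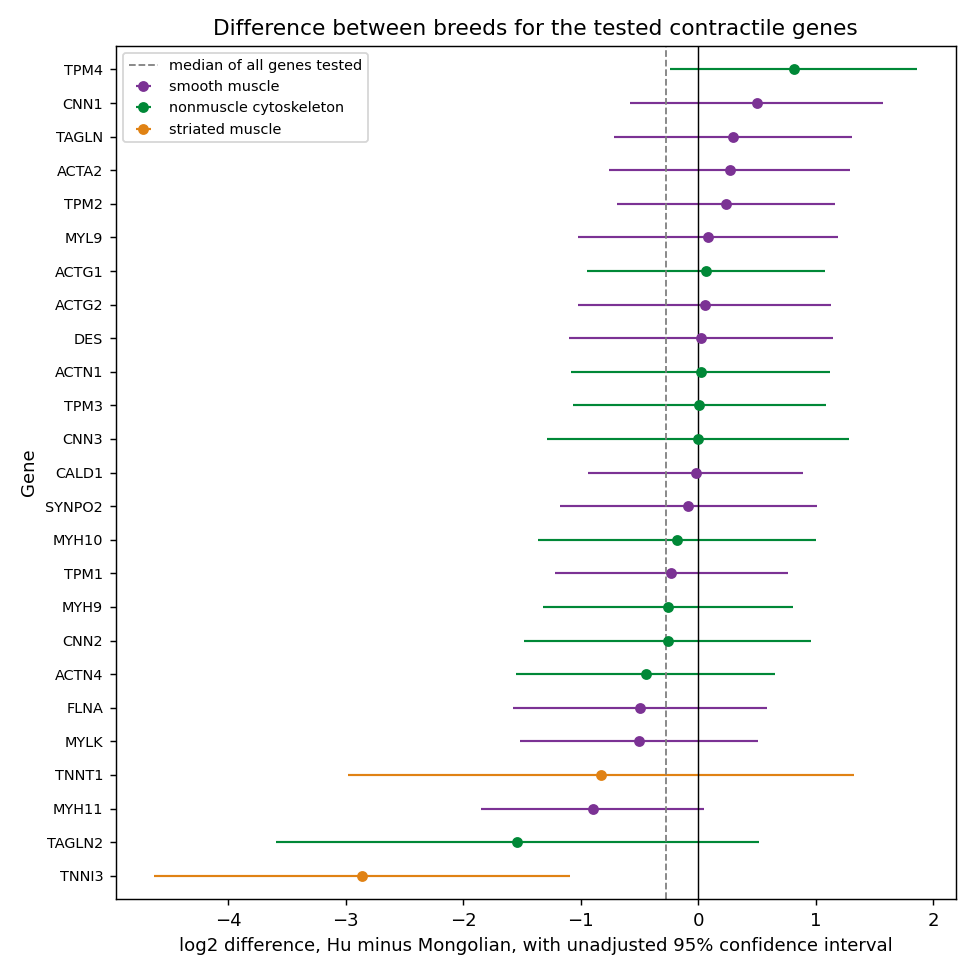
Log2 difference (Hu minus Mongolian, on the log2(FPKM + 1) scale) with its unadjusted 95% confidence interval for 25 of the 26 tested genes, coloured by role; the dashed line marks the median of all genes tested, -0.28. The interval of TNNI3 alone lies wholly on one side of 0, and that of MYH11 reaches from -1.85 to 0.05.

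No gene passed the threshold in the comparison of breeds, neither among the 26 tested contractile genes nor among the 9971 genes tested in all (limma, Benjamini-Hochberg adjusted p under 0.05; 0 called, 0% of genes). An unadjusted p under 0.05 was reached by 1 contractile gene lower in Hu, against 2.82% of all genes, and by 0 higher in Hu, against 0.913% of all genes. The values of the breeds did not overlap in 3 of the 26 with Hu lower, MYH11 and TNNI3 among them, against 6.05% of all genes, and in 0 with Hu higher, against 1.88%. The gene counted at an unadjusted p under 0.05 is TNNI3, whose Mongolian values alone were enough to pass the filter, so the count is a description only. Among genes above 0 in all libraries the count is 0, but that restriction leaves out TNNI3 itself, which is listed at 0 in Hu 1 and Hu 2. Without Hu 3, 3 genes had an unadjusted p under 0.05 with Hu lower, against 14.7% of all genes, and 7 did not overlap with Hu lower, against 32% of all genes. With median-of-ratios scaling 5 did not overlap with Hu higher, against 3.56% of all genes. With libraries weighted by estimated quality, TNNI3 passed the threshold (limma adjusted p = 0.0156), as 5.6% of all genes did in that direction. The weight was 3.64 on Hu 2, where TNNI3 is listed at 0, 0.412 on Hu 1 and 0.25 on Hu 3.

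Of the 26 genes 14 were lower on average in Hu and 12 higher; the median log2 difference was -0.05, beside -0.28 over all genes tested. The 13 smooth muscle genes had a median of 0.03, with 6 negative and 7 positive, and the 11 tested nonmuscle genes one of -0.18, with 6 negative and 5 positive. The split turned with the libraries: 23 of 26 were negative without Hu 3, 14 were positive without Hu 1, 19 were negative after quantile normalization and 18 after scaling to a common sum. The contractile genes varied less between libraries than the table at large. Their median SD of log2(FPKM + 1) over 6 libraries was 0.515, beside 0.804 over all genes tested, and for the 23 with a mean of at least 10 FPKM it was 0.490, beside 0.689 over the 1797 genes at that level.

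Nearly all of these genes had their highest value in Hu 3 or in Mongolian 3. Those libraries also had the largest size factors in the median-of-ratios scaling, which is computed over the whole table. The factors were 1.56 in Hu 3 and 1.16 in Mongolian 3, against 0.648 to 1.05 in the other libraries. The share of all genes highest in each library was not computed. Outside the 2 most abundant assembled rows, the FPKM total was 210272 in Hu 3, against 90775 to 127397 in the other libraries. As a share of that total, the smooth muscle genes summed to 1.76%, 1.47% and 1.36% in Hu and to 1.64%, 1.32% and 1.84% in Mongolian. A highest FPKM in Hu 3 is therefore not a highest share of the library. Of the 23 genes above 0 throughout, 13 were highest in Hu 3, 9 in Mongolian 3 and 1 (CNN2) in Mongolian 1. Those highest in Hu 3 were the actins ACTA2, ACTG1 and ACTG2, all 4 tropomyosins, TAGLN, CNN1, CNN3, MYL9, CALD1 and DES. Those highest in Mongolian 3 included the heavy chains MYH9, MYH10 and MYH11, the alpha-actinins ACTN1 and ACTN4, FLNA, MYLK and SYNPO2. The lowest value was in Hu 1 for 8 genes, in Hu 2 for 8, in Mongolian 2 for 6 and in Mongolian 1 for 1.

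Markers of other cell types also differed between these libraries. The pericyte markers, 8 of 8 listed, summed to 11.4, 11.3 and 94.2 FPKM in Hu and to 20.5, 37.0 and 20.7 FPKM in Mongolian, and RGS5, a pericyte gene, made up 74.2 FPKM of the sum in Hu 3 while it was listed at 0 in Hu 1, Hu 2 and Mongolian 3. Theca and luteal markers, 7 of 7 listed, summed to 126, 26.5 and 130 FPKM in Hu and to 24.8, 19.8 and 409.6 FPKM in Mongolian, with oxytocin (OXT) at 305 FPKM in Mongolian 3. Endothelial markers, 7 of 8 listed, ranged in sum from 5.91 to 25.1 FPKM in Hu and from 5.14 to 10.04 FPKM in Mongolian. Granulosa markers, 4 of 7 listed, ranged from 44.1 to 264 FPKM in Hu and from 57.0 to 83.9 FPKM in Mongolian. Leukocyte markers, 5 of 6 listed, ranged from 6.54 to 20.7 FPKM in Hu and from 8.40 to 37.1 FPKM in Mongolian, and none of the 4 erythrocyte markers was listed. The part of these cell types in the differences above was not tested.

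**Figure D3:**
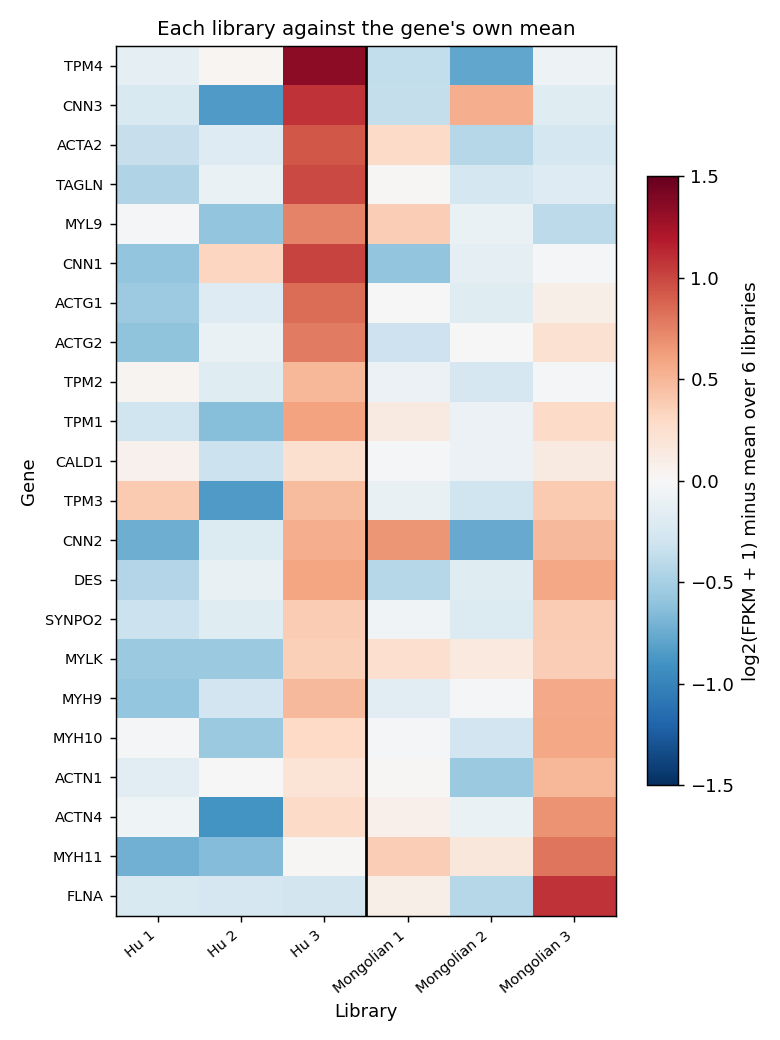
Deviation of each library from the gene's own mean, in log2(FPKM + 1), for 22 of the genes above 0 in all 6 libraries, with Hu libraries left of the line and Mongolian libraries right of it and genes sorted by Hu 3 minus Mongolian 3. TPM4 is at the top, with its highest value in Hu 3, and FLNA is at the bottom, with its highest in Mongolian 3.

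Composition within gene families does not depend on scaling between libraries, and was computed for 7 families after the levels had been seen. Troponins, whose listed genes were all at 0 in Hu 1 and Hu 2, were not among them. Among the myosin heavy chains, MYH11 made up 74.6%, 74.6% and 72.8% of the summed FPKM in the Hu libraries, against 83.6%, 81.2% and 80.7% in Mongolian. MYH9 made up 16.7%, 19.5% and 20.7% in the Hu libraries, against 11.8%, 14.4% and 14.2% in Mongolian. MYH10 made up 8.76%, 5.56% and 6.49% in the Hu libraries, against 4.59%, 4.21% and 5.12% in Mongolian. The breeds did not overlap in any of the 3. The smooth muscle heavy chain took a smaller part of myosin in Hu, by 7.87 percentage points on average, and MYH9 and MYH10 a larger part. The mean FPKM of MYH9 and MYH10 was itself not higher in Hu. These 3 shares make up nearly all of the family, so their separations are not independent. The nonmuscle chain MYH14, also counted in the family, made up at most 0.359% and overlapped between breeds.

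Tropomyosin showed a similar separation. TPM1 made up 32.9%, 30.5% and 34.8% of tropomyosin FPKM in Hu and 43.3%, 43.4% and 42.8% in Mongolian, a mean difference of -10.4 percentage points. TPM4 made up 18.3%, 24.4% and 28.9% in the Hu libraries, against 15.2%, 13.3% and 16.6% in Mongolian. The shares of TPM1 were lower in every Hu library and those of TPM4 higher, while TPM2 and TPM3 overlapped. TPM1, TPM2 and TPM3 each give rise to muscle and nonmuscle proteins by alternative splicing, which values per gene do not separate.

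CNN1 made up 61.7%, 75.2% and 65.9% of calponin FPKM in Hu and 47.7%, 61.5% and 58.8% in Mongolian, where Hu 1 exceeded Mongolian 2 by only a small margin. Actin, alpha-actinin and transgelin shares overlapped between breeds. ACTA2, for example, made up 43.2%, 39.7% and 41.3% of the 3 listed actins among these genes in Hu and 45.0%, 35.5% and 33.8% in Mongolian. Of 21 shares in all, 2 were lower in every Hu library and 4 higher, and families of other genes were not counted for comparison. Shares of a family sum to 100%, so they are not independent, and 3 against 3 libraries cannot give a two-sided exact permutation p below 0.1.

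**Figure D4:**
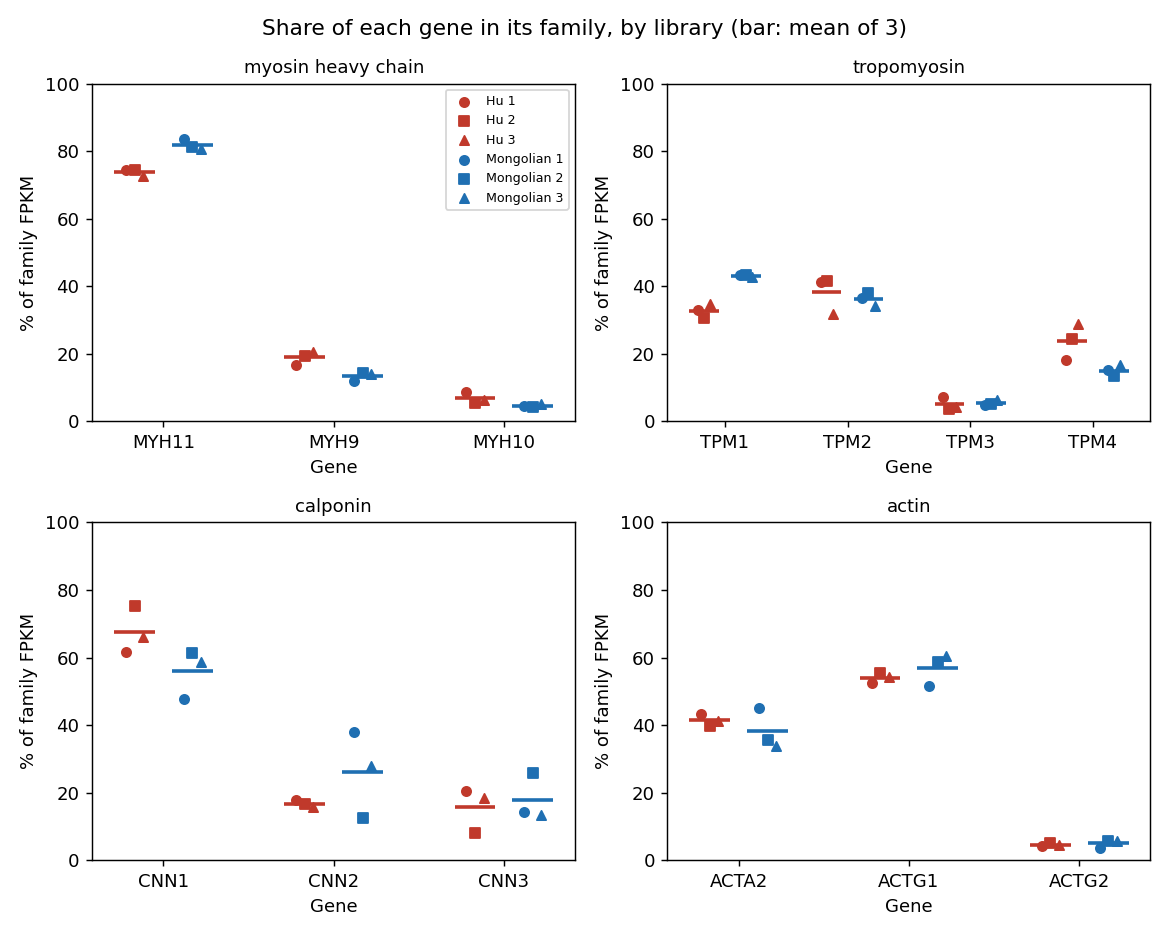
Share of each gene in its family's summed FPKM, in percent, for 4 families, with Hu (red) left of Mongolian (blue), a point per library and a bar at the mean of 3. MYH11 and TPM1 lie lower in every Hu library than in any Mongolian library, and MYH9, MYH10, TPM4 and CNN1 lie higher.

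Ratios between single genes within a library are likewise free of scaling. The ratio of MYH11 to ACTA2 was 0.430, 0.405 and 0.297 in Hu and 0.592, 0.847 and 1.17 in Mongolian. That of MYH11 to TPM2 was 0.308, 0.379 and 0.376 in Hu and 0.721, 0.705 and 0.929 in Mongolian. Against each of the other 22 genes above 0 throughout, the ratio of MYH11 was lower in every Hu library than in any Mongolian library in 17 cases and higher in 0. The levels of MYH11 itself did not overlap between breeds, so these ratios partly restate its own values.

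For TPM4 the ratio was higher in every Hu library in 16 of 22 cases and lower in 0. The ratio of TPM4 to MYH11 was 1.44, 1.55 and 2.41 in Hu and 0.576, 0.495 and 0.524 in Mongolian. Over all 253 pairs of the 23 genes the breeds did not overlap in 62, or 24.5%, a count in which each gene enters 22 pairs. MYLK had 10 lower ratios and 1 higher, TPM2 had 8 higher and CNN3 had 0 in either direction. These counts describe the 6 libraries and carry no test, and pairs of other genes were not counted for comparison.

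Genes that control contraction were examined as a list of 44 regulators, receptors, channels and adhesion proteins. Of these 36 were listed by symbol, in 37 rows, and 33 rows were tested. None was called, the breeds did not overlap in 3 of the 33 with Hu lower, against 6.05% of all genes, and in 1 with Hu higher, against 1.88%. Of the log2 differences 17 were negative and 16 positive, and the median was -0.01. An unadjusted p under 0.05 was reached by 1 of the 33, against 2.82% of all genes with Hu lower. It was PXN, the adhesion protein paxillin, which had 2.47, 2.69 and 5.28 FPKM in the Hu libraries and 13.8, 7.87 and 21.8 FPKM in the Mongolian libraries, without overlap (log2 difference -1.74, limma unadjusted p = 0.0147, adjusted p = 0.998).

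MYOCD, myocardin, the coactivator that drives smooth muscle genes together with SRF, was listed with 0, 1.41 and 6.16 FPKM in the Hu libraries and 4.87, 4.56 and 12.01 FPKM in Mongolian (log2 difference -1.54, limma adjusted p = 0.998). KCNMB1, the smooth muscle subunit of a calcium-activated potassium channel, was listed with 0, 0 and 4.94 FPKM in the Hu libraries and 1.70, 5.92 and 16.5 FPKM in Mongolian. Its log2 difference was -1.93 (SE 0.91, limma unadjusted p = 0.0515, adjusted p = 0.998). As for TNNI3, the Mongolian values of KCNMB1 alone were enough to pass the filter. In both genes Hu 3 lay inside the range of the Mongolian libraries.

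Among the positive differences, PDE5A and PPP1R14A were 2 of the 3 with the smallest unadjusted p. PDE5A, which degrades cyclic GMP, had 8.17, 17.3 and 27.4 FPKM in the Hu libraries and 9.81, 9.72 and 8.52 FPKM in Mongolian. PPP1R14A, an inhibitor of the myosin phosphatase, had 31.4, 67.7 and 107 FPKM in the Hu libraries and 41.3, 25.5 and 60.9 FPKM in the Mongolian libraries. In both genes Hu 2 and Hu 3 lay above every Mongolian library and Hu 1 did not. The breeds overlapped in each, and the limma adjusted p was 0.998 for both.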

How the data were processed

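The authors' deposited gene table holds FPKM, 1 column per library, per the file headers. RNA was extracted with an RNeasy kit and libraries were made with a SMARTer mRNA kit, per the labels' protocols. Aligner, counter and build are not given in the sources used. Low values showed no steps of whole reads (at most 0.566% of genes under 2 FPKM shared a ratio between 2 libraries within 0.2%), so no count model was used.

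The 9971 genes that reached 0.5 FPKM in 3 or more libraries were fitted on log2(FPKM + 1) with limma 3.58.1 in R 4.3.3 (lmFit, eBayes with trend, breed as the only factor). Tests were two-sided, with Benjamini-Hochberg adjustment over all 9971. A log2 difference on this scale understates changes of low genes. FPKM divides by the library total, so an abundant transcript lowers all others.

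Members, role groups and gene lists were chosen with earlier results of these data known. Statistics are given for the 6 tested genes with the smallest unadjusted p in each direction and for ACTA2, MYH11, TAGLN, DES, CNN1 and TNNI3; of the regulators, for the 3 with the smallest p in each direction. Alternatives were 2 pseudocounts, 3 filters, 3 scalings, a replicate block, array weights, a covariate and each library left out. Family shares, ratios, ranks and counts of genes without overlap under the alternatives were added after values were seen. A second table, of lncRNAs, was not used. All 30 symbols matched RefSeq's gene table. Single values of 1 of the 30 genes and of 1 regulator are not reported here, though counts and medians include both.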

Additional observations from a re-analysis of the deposited data

How the results depend on the processing

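No contractile gene was called in 16 of the 17 alternatives, and array weights called 1, TNNI3 (log2 difference -3.09, limma adjusted p = 0.0156). The number at an unadjusted p under 0.05, 1 as reported, was 2 with pseudocounts of 0.1 and 0.01 and with quantile normalization, 3 with median-of-ratios scaling, the common sum and listed genes as covariate, 5 with array weights, 0 with the 5 FPKM filter and with genes above 0 throughout, and 1 to 3 when 1 library was left out. The 5 FPKM filter and the restriction to genes above 0 throughout both left TNNI3 out of the test. The contractile median minus that of all genes, 0.22 as reported, was 0.557 and 0.734 with pseudocounts of 0.1 and 0.01 and -0.153 with quantile normalization. It was near 0 without Hu 1, at 0.0285, and with listed genes as covariate, at 0.0309, and was 0.0967 with array weights, 0.109 with no filter, 0.113 with genes above 0 throughout, and 0.132 and 0.128 without Mongolian 1 and Mongolian 2. The median of all genes itself, -0.28 as reported, was 0.02 with quantile normalization, 0.01 without Hu 1 and -0.66 without Hu 3.

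DES turned to -0.0106 with quantile normalization and to -0.0244 with the common sum, and ACTA2 to -0.0703 and MYL9 to -0.522 with array weights. With 1 library left out, ACTA2 ranged from -0.13 to 0.51, DES from -0.26 to 0.32, MYL9 from -0.27 to 0.40, TAGLN from -0.13 to 0.59 and TAGLN2 from -2.44 to 0.0428; the lowest value in each came without Hu 3. In counts chosen after seeing the data, the genes without overlap and higher in Hu, 0 as reported, were 5 with median-of-ratios scaling (ACTG1, CNN1, TAGLN, TPM2 and TPM4; 3.56% of all genes), 1 with the common sum (TPM4; 2.13%) and 0 to 2 with 1 library left out (2.4% to 10.2%). Those lower in Hu, 3 as reported, were 3 to 7 with 1 library left out (7.6% to 32% of all genes), with both maxima without Hu 3. MYH11 was among them under every scaling. Leaving out a library cannot make separate ranges overlap. Counts with 1 library left out could therefore only equal or exceed those reported, and MYH11 stayed among them by necessity. The cause of these changes was not tested.

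With the replicate block, 0 genes were called, 1 had an unadjusted p under 0.05 and the median difference from all genes was 0.22. Deviations of same-numbered libraries correlated at -0.013, -0.030 and -0.180, which shows no pairing by number. With 3 libraries per breed these correlations cannot exclude one. Read depth is unknown, and levels near 0 cannot be given a counting error.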
